A study of Mus musculus with 6 samples.

Results

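The genes described here act in DNA repair and in the checkpoints that stop the cell cycle when DNA is damaged. They are 45 listed genes of homologous recombination, end joining, mismatch repair, excision repair, interstrand crosslink repair, translesion synthesis and damage signalling, listed by their known roles, with earlier results of these arrays known. Where a gene had several probe sets annotated to it alone, the one brightest on average (mean of log2 values) was used, and 41 of the 45 had at least 1, among 12393 such genes on the array. Xrcc2, Xrcc3, Lig4 and Fancd2 had none and were not analysed here. H2afx was found under its current symbol H2ax.

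The arrays measured total RNA from Ba/F3, a mouse pro-B cell line that depends on interleukin 3 (IL3) unless an active kinase replaces it. Cells carried the pMSCV vector with ETV6-PDGFRB, with FIP1L1-PDGFRA or with no insert. Both fusion lines had been selected to grow without IL3, while the empty-vector cells were supplied with IL3, so that fusion gene, selection and lack of IL3 go together in every comparison with the vector cells. Each line gave 1 untreated array and 1 array after 4 h in 100 nM imatinib (Glivec), an inhibitor of PDGF receptor, ABL and KIT kinases. All cells were in medium with 10% serum. The sources used here do not say whether a line was 1 clone or a pool. The comparison asks how these transcripts respond when the fusion kinase is inhibited, and the IL3 cells show what the drug does where no fusion is present. Paired signals below are given as untreated, then imatinib.

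Cells repair DNA by several routes. Homologous recombination copies the sister chromatid and so works in S and G2 phase, end joining ligates broken ends in any phase, mismatch repair corrects replication errors, and the excision pathways replace damaged bases or short stretches of a strand. ATM and ATR kinases sense breaks and stalled forks and act through CHK2 and CHK1. Many genes of homologous recombination and of the replication checkpoint are transcribed mostly around S phase under E2F factors, whereas most excision repair and end joining genes are expressed throughout the cycle.

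RefSeq promoter windows (GRCm38.p6, 250 bases before to 50 bases after the start of transcription) were found for 33 of the 41 genes. The E2F words TTTCCCGC, TTTCGCGC, TTTGCCGC and TTTGGCGC were searched on both strands; overlapping matches of different motifs were each counted, and a gene with several windows counted as holding a motif if any of them did. At least 1 E2F word stood for 8 of the 33 genes (24.2%), namely Bard1, Brca2, Chek2, Fancg, Msh3, Msh6, Rad51c and Xrcc6, against 4.07% of the 9887 array genes with a window and 2.6% of all 27025 genes. The share was higher in the DNA replication genes compared below, at 13 of 28 with a window (46.4%). Among the repair genes that rose with imatinib (below), 4 of 13 windows held such a word, against 4 of 20 for the other members. Of these other members with a word, Bard1 and Rad51c were too dim to test and could not be called. The 4 windows of genes that rose are shown because they carry the motif, and Ung because it rose most while its window has none of these words. Capitals mark the E2F word on either strand.

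Fancg, chr4:43010252-43010551, minus strand: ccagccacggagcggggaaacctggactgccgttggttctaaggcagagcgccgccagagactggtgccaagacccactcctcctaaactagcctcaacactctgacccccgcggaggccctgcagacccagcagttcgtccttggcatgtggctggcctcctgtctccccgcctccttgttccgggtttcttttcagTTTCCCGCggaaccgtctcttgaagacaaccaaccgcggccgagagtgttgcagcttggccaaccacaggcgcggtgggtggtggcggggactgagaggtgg
Chek2, chr5:110839733-110840032, plus strand: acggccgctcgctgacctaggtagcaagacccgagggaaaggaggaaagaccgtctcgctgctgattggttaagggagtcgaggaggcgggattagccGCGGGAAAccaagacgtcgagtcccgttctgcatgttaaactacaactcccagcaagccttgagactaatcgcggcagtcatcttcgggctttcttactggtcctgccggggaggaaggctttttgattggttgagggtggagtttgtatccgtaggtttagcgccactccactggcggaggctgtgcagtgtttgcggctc
Brca2, chr5:150522371-150522670, plus strand: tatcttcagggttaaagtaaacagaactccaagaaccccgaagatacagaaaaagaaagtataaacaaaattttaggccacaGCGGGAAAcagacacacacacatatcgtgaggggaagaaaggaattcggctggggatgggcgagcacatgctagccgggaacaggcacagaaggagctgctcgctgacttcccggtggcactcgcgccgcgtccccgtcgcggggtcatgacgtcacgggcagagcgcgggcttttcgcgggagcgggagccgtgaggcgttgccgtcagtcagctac
Msh6, chr17:87974800-87975099, plus strand: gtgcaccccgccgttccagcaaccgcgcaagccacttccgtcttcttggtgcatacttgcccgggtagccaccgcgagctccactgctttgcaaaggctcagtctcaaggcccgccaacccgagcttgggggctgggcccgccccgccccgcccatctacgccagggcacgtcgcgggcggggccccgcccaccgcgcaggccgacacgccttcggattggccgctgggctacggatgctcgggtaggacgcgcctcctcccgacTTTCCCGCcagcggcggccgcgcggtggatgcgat
Ung, chr5:114130185-114130484, plus strand: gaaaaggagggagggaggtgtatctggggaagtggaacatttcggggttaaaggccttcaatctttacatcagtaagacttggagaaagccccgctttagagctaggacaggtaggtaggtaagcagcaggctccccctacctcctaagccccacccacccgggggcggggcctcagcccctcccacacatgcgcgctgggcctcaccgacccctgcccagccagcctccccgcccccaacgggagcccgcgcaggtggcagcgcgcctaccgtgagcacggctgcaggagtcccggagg

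In Chek2, Brca2 and Fancg the word began 152, 168 and 52 bases before the start site, and in Msh6 it lay within the transcribed bases. The MYC E box CACGTG was present in 5 of 33 windows (15.2%, array genes 10.8%), those of Apex1, Lig3, Parp1, Parp2 and Xrcc5, and in 0 of the 13 windows of genes that rose. The NF-Y word CCAAT was found in 19 (57.6%, array genes 42.3%), the CHR word TTTGAA in 2 (6.06%, array genes 15.4%) and the STAT5 word TTCNNNGAA in 1 (3.03%, array genes 8.45%). Mean G and C content was 60% ± 5.6 (SD) in the members' windows and 59.1% ± 9.56 in those of the array genes. These are matches of letters and show no binding.

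As deposited, each array had a trimmed mean signal of 100.0. A signal floor of 20.1, the median of the arrays' 50th percentiles, was set under all values, and genes were tested when at least 2 arrays exceeded it. Ratios of 3' to 5' control probe sets were 1.12 to 1.22 for actin and 0.754 to 0.802 for Gapdh. Of 11 matched pro-B markers, Cd79a, Cd79b and Ptprc exceeded the floor on every array and Igll1 on the IL3 arrays alone, while Ebf1, Pax5, Rag1, Vpreb1, Cd93, Il7r and Dntt were below it throughout. Summed pro-B signal was 736 to 926 on 5 arrays and 1070 in treated FIP1L1-PDGFRA cells. Summed erythroid signal, nearly all Klf1 with Epor, was 241 and 233 in the IL3 pair, 386 and 1024 in the ETV6-PDGFRB pair and 169 and 848 in the FIP1L1-PDGFRA pair, with Hba-a1 below the floor. Of the 6 T and NK cell markers Cd3e, Cd4, Cd8a and Ncr1 were below the floor throughout, Cd3g exceeded it in the ETV6-PDGFRB pair (21.9 and 20.5), and Zap70 read 60.6 and 52.1 in the IL3 pair, 25.1 and 87.8 in the ETV6-PDGFRB pair and 48.7 and 14.5 in the FIP1L1-PDGFRA pair. The myeloid list summed to 116.5 and 114.3 in the ETV6-PDGFRB pair, against 225.7 to 356.9 elsewhere. The spread of this sum came mostly from Adgre1, which read 61.4 and 46.2 in that pair, 284.1 and 304.8 in the IL3 pair and 269.8 and 173.7 in the FIP1L1-PDGFRA pair. Csf1r lay between 30.9 and 34.0 on every array, and Lyz2, Itgam, Mpo and Elane were below the floor. The fibroblast list was carried by Acta2 and summed to 480.5 and 322.6 in the ETV6-PDGFRB pair, against 53.8 to 73.7 elsewhere, with Col1a1 and Col1a2 below the floor. The part of these markers in the results was not tested.

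With imatinib, 16 of the 38 tested repair genes rose in the fusion lines and 0 fell. Over all 6808 genes tested 13.5% rose and 12.4% fell, against 42.1% of the repair genes that rose. The 16 were Chek1, Chek2, H2afx, Brca1, Brca2, Rad51ap1, Rad54l, Blm, Msh6, Exo1, Xrcc1, Ung, Xpa, Fanca, Fancg and Rev3l. Their log2 changes ran from 0.39 for H2afx to 1.34 for Ung, and the median of the 38 was 0.33, against 0.04 over all genes. The test was limma with Benjamini-Hochberg adjustment at 0.05. It treats the fusion lines as repeats and takes the spread from their disagreement and from the IL3 pair, so it holds no repeat culture. At an unadjusted p under 0.05 limma counted 17, the added gene being Xpc, against 42.7% of all genes in either direction, and all 17 estimates were above 0.

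Scaling to the hybridization controls lowered the median of all genes to -0.17 and gave 8 repair genes that rose and 3 that fell, Apex1, Parp1 and Xrcc6. The 4 fusion arrays alone gave 7 that rose, namely Brca1, Chek1, Chek2, Msh6, Rad51ap1, Rad54l and Ung. Without the ETV6-PDGFRB pair or without the FIP1L1-PDGFRA pair no gene of the 6808 passed, the repair genes included.

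**Figure D1:**
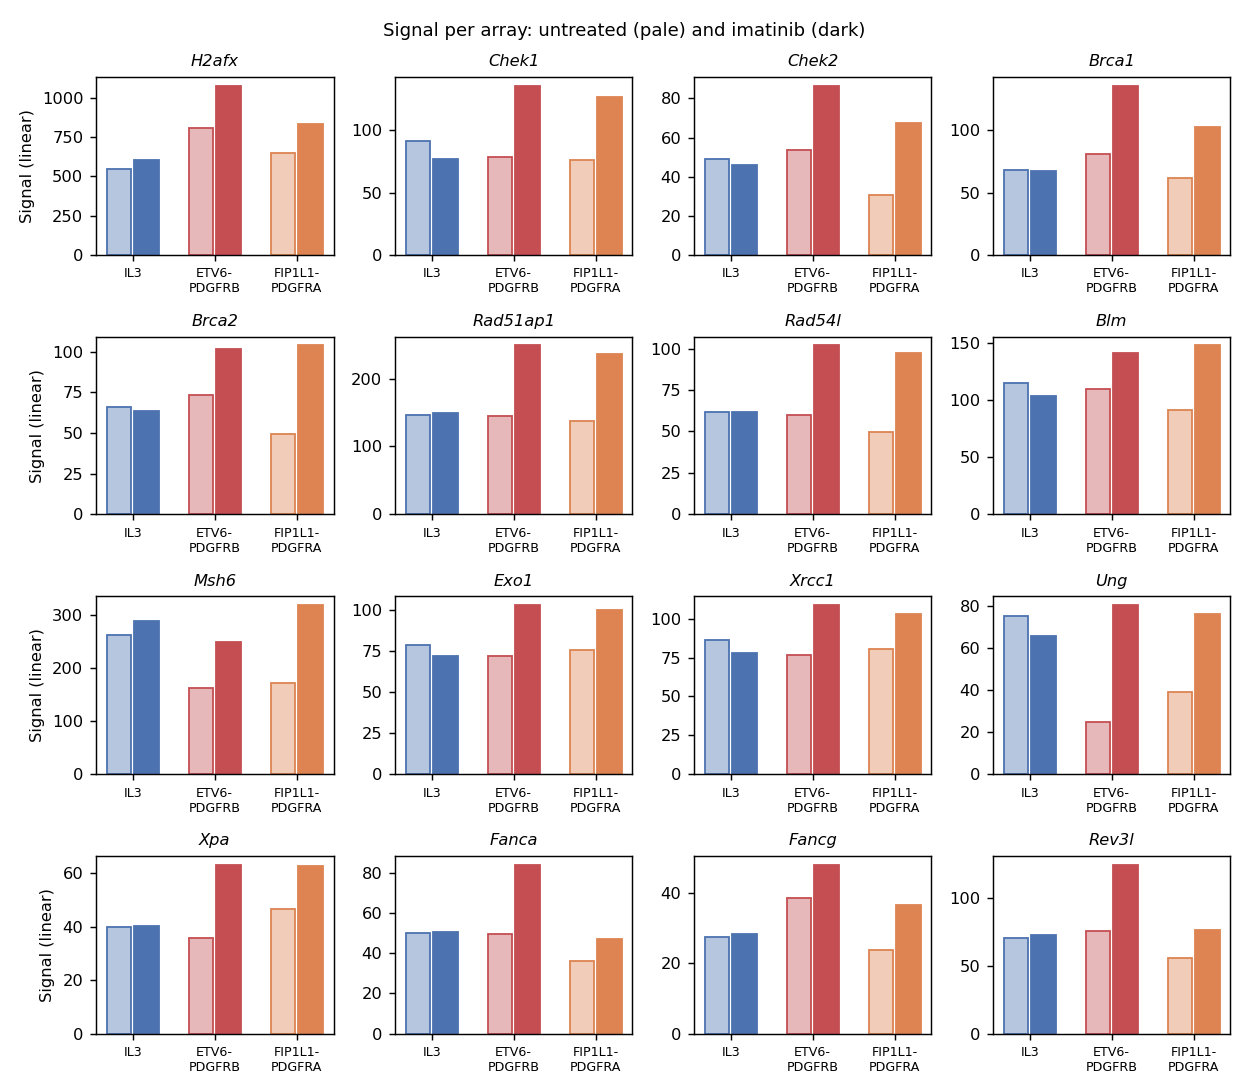
Linear array signal of the 16 repair genes that rose with imatinib in the fusion lines, 1 bar per array and no error bars because each bar is 1 array. Pale bars are untreated and dark bars imatinib-treated cells; in 13 of the 16 genes both treated fusion bars stand above the other 4 bars, the exceptions being Msh6, Fanca and Fancg.

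Both treated fusion arrays lay above the other 4 arrays in 16 of the 38 tested repair genes, against 24.5% of all tested genes. Of these, 13 were among the genes that rose, and Ercc1, Mre11a and Prkdc did not pass. The exceptions among the genes that rose were Msh6, Fanca and Fancg. The fitted change was above 0 in 29 of the 38 repair genes, against 54.5% of all tested genes.

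Of 8 damage sensing and checkpoint genes tested, Chek1, Chek2 and H2afx rose and 5 did not pass, with a median log2 change of 0.26. Chek1 encodes the kinase CHK1, which ATR activates at stalled forks. Its signal was 91.2 untreated and 77.2 with imatinib in the IL3 pair, 78.3 and 136 in the ETV6-PDGFRB pair and 76.1 and 127 in the FIP1L1-PDGFRA pair. Both treated fusion arrays were above all others, and it rose by 0.77 ± 0.11 (SE, limma adjusted p = 0.0129). The only other Chek1 probe set above the floor read 69.5 and 90.7 in the ETV6-PDGFRB pair and 70.9 and 114 in the FIP1L1-PDGFRA pair, but also 60.3 and 101 in the IL3 pair, so the probe sets of this gene disagree on the IL3 cells. Chek2 encodes CHK2, the kinase downstream of ATM. It read 48.8 and 45.7 in the IL3 pair, 53.8 and 86.6 in the ETV6-PDGFRB pair and 30.8 and 67.6 in the FIP1L1-PDGFRA pair, a rise of 0.91 ± 0.13 (adjusted p = 0.0125). The FIP1L1-PDGFRA line started lowest and had the larger ratio, 2.19-fold against 1.61-fold.

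H2afx, the gene of the histone variant H2AX that is phosphorylated around breaks, had signals of 547 and 607 in the IL3 pair, 810 and 1079 in the ETV6-PDGFRB pair and 648 and 837 in the FIP1L1-PDGFRA pair. The rise was 0.39 ± 0.10 (limma adjusted p = 0.0413), and the IL3 pair moved the same way by 0.15. The upstream kinases did not pass. Atm read 57.7 and 77.3 in the IL3 pair, 104 and 74.6 in the ETV6-PDGFRB pair and 67.2 and 70.5 in the FIP1L1-PDGFRA pair (-0.20 ± 0.20, adjusted p = 0.48), and Atr had log2 ratios of -0.22 and 0.03 (adjusted p = 0.572). The MRE11, RAD50 and NBS1 proteins form the complex that binds broken ends. Their genes Mre11a, Rad50 and Nbn had log2 changes of 0.20, 0.32 and 0.18, none past the threshold, with adjusted p of 0.145, 0.125 and 0.493.

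In homologous recombination all 5 tested genes rose, with a median of 0.78. Brca1, whose product directs ends into recombination, read 68.1 and 67.3 in the IL3 pair, 81.3 and 136 in the ETV6-PDGFRB pair and 61.3 and 103 in the FIP1L1-PDGFRA pair. The change was 0.74 ± 0.08 (limma adjusted p = 0.00767), and the 2 lines gave nearly the same ratio, 1.67-fold and 1.68-fold. Its other probe sets that exceeded the floor on any array gave log2 ratios of 0.86 and 0.73 and of 0.78 and 0.70 in the same lines. In the former probe set both untreated fusion signals (14.07 and 17.91) were below the floor, so its ratios are taken to the floor. Brca2, the other breast cancer susceptibility gene of this route, was 65.8 and 63.7 in the IL3 pair, 73.3 and 102 in the ETV6-PDGFRB pair and 49.2 and 104 in the FIP1L1-PDGFRA pair. The treated fusion arrays lay close together while the untreated ones did not (0.78 ± 0.16, adjusted p = 0.0259).

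Rad51ap1 encodes a DNA-binding protein of this route. Its signals were 146 and 150 in the IL3 pair, 145 and 249 in the ETV6-PDGFRB pair and 137 and 236 in the FIP1L1-PDGFRA pair. All 4 arrays without inhibited fusion kinase lay within 137 to 150, and the rise was 0.78 ± 0.08 (limma adjusted p = 0.00737). Of its other 3 probe sets, all higher in both fusion lines, those with log2 ratios of 0.80 and 0.65 and of 0.15 and 0.46 were also higher in the IL3 pair, by 0.35 and 0.66. Rad54l, the gene of a DNA translocase that acts in recombination, was 61.8 on both IL3 arrays. It read 60 and 102 in the ETV6-PDGFRB pair and 49.7 and 97.4 in the FIP1L1-PDGFRA pair (0.87 ± 0.10, adjusted p = 0.00749). Blm, which encodes a helicase that resolves recombination intermediates, read 115 and 104 in the IL3 pair, 110 and 141 in the ETV6-PDGFRB pair and 91.7 and 148 in the FIP1L1-PDGFRA pair. It rose by 0.52 ± 0.12 (adjusted p = 0.0349).

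The remaining recombination genes were too dim to test. Bard1, the partner of BRCA1, was below the floor on all 6 arrays. Rad51c, also of this route, exceeded it only in treated ETV6-PDGFRB cells, at 26.1.

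End joining genes gave no call. Of 4 tested 0 rose and 0 fell by limma, also at an unadjusted p under 0.05, and the median was 0.09. Over all genes 13.5% rose and 12.4% fell, so that 0 of 4 is near the background. Xrcc5 and Xrcc6 encode the Ku proteins that clamp DNA ends. Xrcc5 was between 30.5 and 40.1 on all arrays, with a change of 0.01 ± 0.09 (adjusted p = 0.94). Xrcc6 read 146 on both IL3 arrays, 136 and 103 in the ETV6-PDGFRB pair and 120 and 115 in the FIP1L1-PDGFRA pair (-0.23 ± 0.11, adjusted p = 0.185). Prkdc, the gene of the kinase that Ku recruits, had 35.7 and 43.8 in the IL3 pair, 49.9 and 57.2 in the ETV6-PDGFRB pair and 36.2 and 50.8 in the FIP1L1-PDGFRA pair (0.34 ± 0.14, adjusted p = 0.129). It was thus higher with imatinib in the IL3 pair too, by 0.29. Xrcc4, a cofactor of the end joining ligase, was at 0.18 ± 0.19 (adjusted p = 0.522), with a ratio of -0.53 in the IL3 pair.

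**Figure D2:**
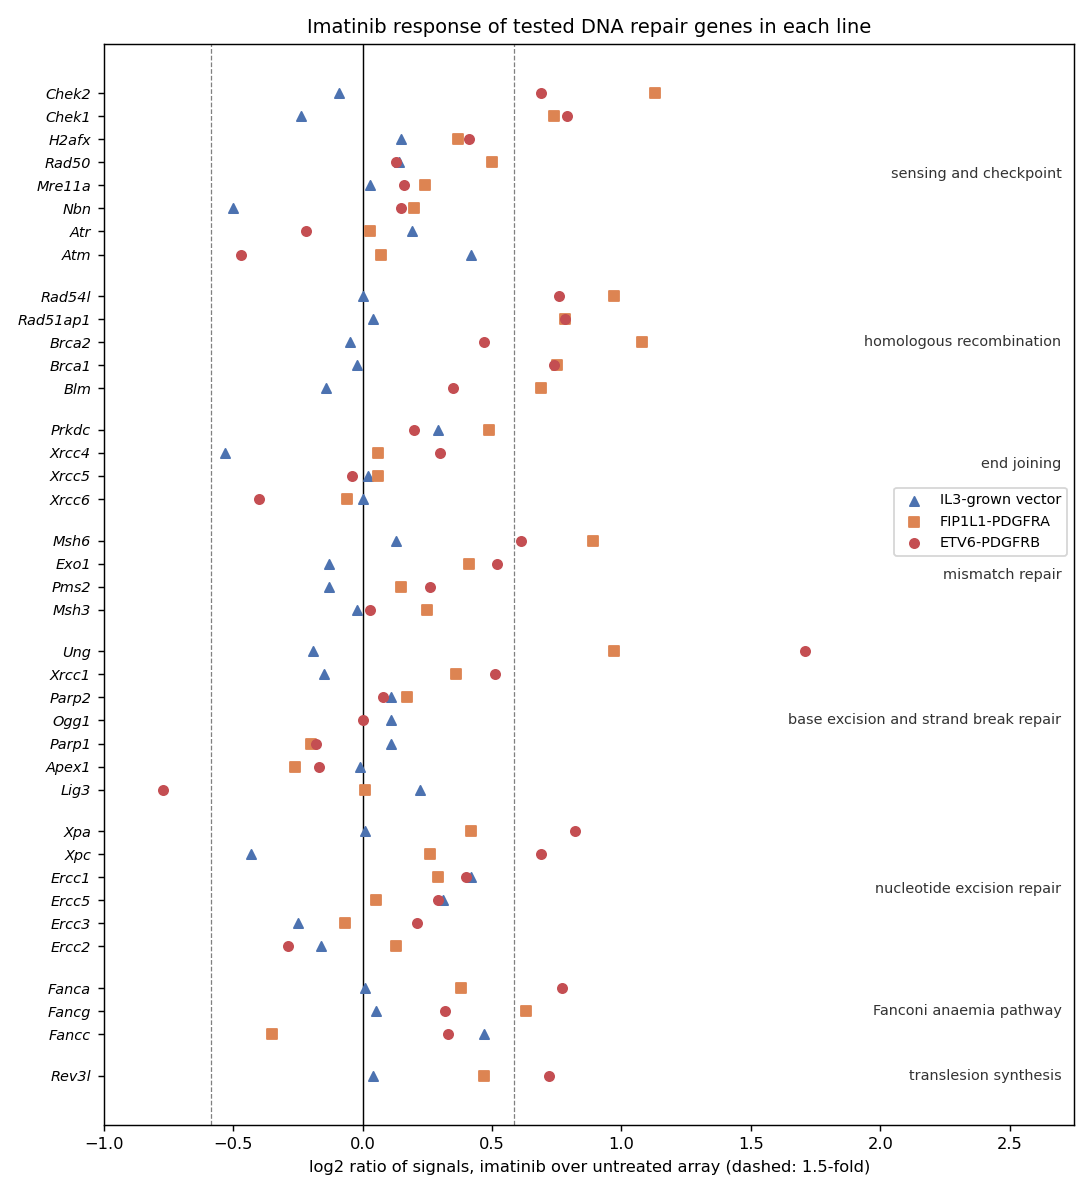
Log2 ratio of imatinib-treated over untreated signal for the tested repair genes, 1 point per line and gene, grouped by repair route (horizontal axis, log2; dashed lines at 1.5-fold). The 5 homologous recombination genes have both fusion points between 0.35 and 1.08 and IL3 points between -0.14 and 0.04, while end joining points of the fusion lines lie between -0.40 and 0.49.

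Mismatch repair split by gene. Of 4 tested, 2 rose and 2 did not pass, with a median of 0.34. Msh6 encodes a subunit of the dimer that recognises single mismatches. Its signals were 263 and 288 in the IL3 pair, 163 and 249 in the ETV6-PDGFRB pair and 172 and 319 in the FIP1L1-PDGFRA pair. Both untreated fusion arrays were the lowest, and the treated ones were near the IL3 level (0.75 ± 0.11, limma adjusted p = 0.0132). Exo1, the gene of an exonuclease used in mismatch repair and in the trimming of broken ends, read 78.7 and 72 in the IL3 pair, 72.2 and 103 in the ETV6-PDGFRB pair and 75.3 and 100.2 in the FIP1L1-PDGFRA pair. It rose by 0.47 ± 0.10 (adjusted p = 0.0264), while its other probe set had log2 ratios of 0.30 and 0.19 in the fusion lines and 0.22 in the IL3 pair. Msh3, the alternative partner for larger loops, was between 25.0 and 43.2 (0.14 ± 0.10, adjusted p = 0.335), and Pms2, the nicking subunit, was at 0.21 ± 0.10 (adjusted p = 0.164).

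Base excision and strand break repair held both the highest estimate of the 38, Ung, and the lowest, Lig3. Of 7 tested, 2 rose and 5 did not pass, and the median was 0.00. That median is the value of Ogg1, which lay at or near the floor, and it was -0.19 with the floor at the 40th percentile and -0.16 with log2 of the signal plus 16. Ung encodes the glycosylase that removes uracil from DNA. It read 75.0 and 65.6 in the IL3 pair, 24.6 and 80.4 in the ETV6-PDGFRB pair and 38.8 and 76.0 in the FIP1L1-PDGFRA pair. Again both untreated fusion arrays were the lowest, and the ratios were 3.27-fold and 1.96-fold (1.34 ± 0.19, limma adjusted p = 0.0122). Xrcc1, the gene of the scaffold for single-strand break repair, had 86.7 and 78.2 in the IL3 pair, 76.6 and 109 in the ETV6-PDGFRB pair and 80.4 and 103 in the FIP1L1-PDGFRA pair. Its rise was 0.43 ± 0.10 (adjusted p = 0.0359).

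Apex1, which encodes the main endonuclease for sites that have lost a base, was 926 and 922 in the IL3 pair, 901 and 800 in the ETV6-PDGFRB pair and 892 and 743 in the FIP1L1-PDGFRA pair. The treated fusion arrays were the lowest, but the change of -0.22 ± 0.09 did not pass (limma adjusted p = 0.119), and its 2 other probe sets had ratios from -0.11 to -0.06. Parp1, the gene of the enzyme that marks strand breaks with ADP-ribose, had ratios of -0.18 and -0.20 on the probe set used (adjusted p = 0.182) and of 0.25 and 0.17 on another. Parp2, its relative, was at 0.12 ± 0.09 (adjusted p = 0.357). Lig3, the ligase partner of XRCC1, read 89.4 and 104 in the IL3 pair, 105 and 61.2 in the ETV6-PDGFRB pair and 90.8 and 91.4 in the FIP1L1-PDGFRA pair (-0.38 ± 0.20, adjusted p = 0.216). Its other probe sets above the floor had ratios from -0.33 to 0.53 in the former fusion line and from -0.61 to -0.26 in the latter. Ogg1, which encodes a glycosylase for oxidised guanine, exceeded the floor on 2 arrays, where it read at most 21.7.

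Nucleotide excision repair removes bulky and ultraviolet lesions. Of 6 tested genes, 1 rose and 5 did not pass, with a median of 0.26. The share that rose, 16.7%, is near the 13.5% of all genes tested. The gene that rose was Xpa, which encodes a protein that checks the damaged strand. Its signals were 39.9 and 40.2 in the IL3 pair, 35.7 and 63.1 in the ETV6-PDGFRB pair and 46.6 and 62.5 in the FIP1L1-PDGFRA pair (0.62 ± 0.12, limma adjusted p = 0.0237). Xpc, the damage sensor gene, read 34.1 and 25.4 in the IL3 pair, 23.9 and 38.6 in the ETV6-PDGFRB pair and 24.3 and 29.1 in the FIP1L1-PDGFRA pair (0.47 ± 0.18, adjusted p = 0.116). Ercc1 and Ercc5, of the nucleases that cut on either side of a lesion, were at 0.34 and 0.17, with IL3 ratios of 0.42 and 0.31. Ercc2 and Ercc3, which encode the helicases of the TFIIH complex, were at -0.08 and 0.07. Adjusted p for these 4 ran from 0.166 to 0.713.

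Of the Fanconi anaemia genes, whose products act on crosslinks between strands, 2 of 3 tested rose. Fanca read 50.1 and 50.3 in the IL3 pair, 49.3 and 84.0 in the ETV6-PDGFRB pair and 36.2 and 47.1 in the FIP1L1-PDGFRA pair (0.57 ± 0.12, limma adjusted p = 0.0278). Fancg read 27.4 and 28.4, 38.6 and 48.1, and 23.7 and 36.7 in the same order (0.47 ± 0.11, adjusted p = 0.0352). In both genes the treated FIP1L1-PDGFRA array did not exceed every untreated array. Fancc had log2 ratios of opposite sign, 0.33 for ETV6-PDGFRB and -0.35 for FIP1L1-PDGFRA (adjusted p = 0.977). In translesion synthesis, Rev3l, the catalytic subunit gene of polymerase zeta, rose by 0.59 ± 0.10 (adjusted p = 0.0175). It read 70.6 and 72.7 in the IL3 pair, 75.7 and 125 in the ETV6-PDGFRB pair and 55.7 and 77.0 in the FIP1L1-PDGFRA pair. Polh, which encodes polymerase eta, exceeded the floor only in untreated ETV6-PDGFRB cells, at 24.2.

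**Figure D3:**
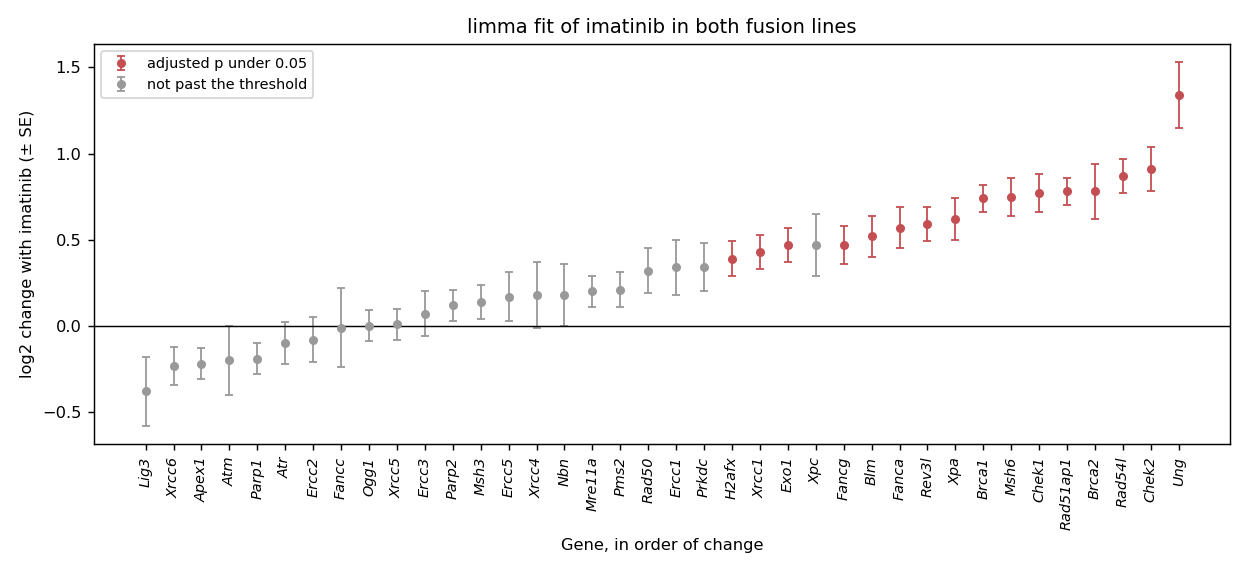
Fitted log2 change with imatinib over both fusion lines for the 38 tested repair genes, in order of change (points, limma estimate; bars, ± SE from 6 arrays). The 16 genes with an adjusted p under 0.05 all lie above 0, from 0.39 for H2afx to 1.34 for Ung, and the lowest estimate is that of Lig3 at -0.38.

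Counted within a line with no test, 11 of 40 repair genes with a ratio were at least 1.5-fold higher with imatinib in ETV6-PDGFRB cells (all genes 8.63%) and 1 was at least 1.5-fold lower (all genes 9.24%), Lig3. In FIP1L1-PDGFRA cells 10 of 37 were higher (all genes 9.03%) and 0 lower (all genes 8.99%). In the IL3 pair 0 of 38 were higher (all genes 0.914%) and 0 lower (all genes 0.539%). Brca1, Chek1, Chek2, Msh6, Rad51ap1, Rad54l and Ung passed 1.5-fold in both fusion lines. At 2-fold, Ung alone remained in ETV6-PDGFRB cells, and Chek2 and Brca2 alone in FIP1L1-PDGFRA cells.

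Whether the fusion lines responded differently from the IL3 pair was tested directly. By limma 0 repair genes and 0% of the 6808 genes passed, with 13 repair genes at an unadjusted p under 0.05, against 17.3% of all genes. The lowest adjusted p among repair genes was 0.177, for Chek1, whose difference was 1.01 ± 0.19. The other Chek1 probe set above the floor had log2 ratios of 0.38 and 0.68 in the fusion lines but 0.74 in the IL3 pair. The probe sets thus disagree on the Chek1 difference. For Ung the difference was 1.53 ± 0.36 (adjusted p = 0.199). With log2 of the signal plus 16 in place of the floor, 2 of 38 repair genes passed, Chek1 and Ung, and 4.35% of all genes (296 of 6808).

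Before treatment, the median difference of the repair genes between fusion and IL3 cells was -0.05, against 0.00 over all genes. Of the 38 repair genes, 14 lay above 0, against 48.6% of all genes. By limma 0 passed, against 0.338% of all genes, and 2 had an unadjusted p under 0.05, Ung and Msh6, against 5.74% of all genes, so that this count is near the background. The estimates were -1.28 ± 0.30 for Ung (adjusted p = 0.552) and -0.65 ± 0.20 for Msh6 (adjusted p = 0.759). This comparison and the imatinib response share the untreated fusion arrays.

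After imatinib the median difference from treated IL3 cells was 0.31, against 0.03 over all genes. Of the 38 repair genes, 26 lay above 0, against 53.1% of all genes. Ung (0.25 ± 0.30) and Msh6 (-0.03 ± 0.20) were then closer to the IL3 level than before treatment. Brca1 (0.81 ± 0.27), Chek1 (0.76 ± 0.15), Rad51ap1 (0.69 ± 0.15) and Rad54l (0.69 ± 0.18) had the higher estimates among those named. So did Chek2 (0.74 ± 0.38) and Brca2 (0.69 ± 0.27). The other Chek1 probe set above the floor read 90.7 and 114 in treated ETV6-PDGFRB and FIP1L1-PDGFRA cells and 101 in treated IL3 cells. Another Rad51ap1 probe set read 37.77 and 61.76 there and 54.95 in treated IL3 cells. The remaining Rad51ap1 probe sets were higher in both treated fusion lines. By limma 0 repair genes and 0% of all genes passed. At an unadjusted p under 0.05 there were 9 of 38 repair genes, near the background of 21.3% of all genes. Adjusted p for the genes named here ran from 0.124 to 0.945.

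A wider list of 93 further repair genes had 64 with a probe set and 58 tested. Of these 15 rose, 5 fell and 38 did not pass, with a median of 0.19. Timeless, of the complex that protects replication forks, rose by 1.13 ± 0.13 (limma adjusted p = 0.00755), its signal going from 83.9 to 188 and from 65.8 to 140, while the IL3 arrays read 86.3 and 106. Ddb2, an ultraviolet damage sensor gene, rose by 1.08 ± 0.17 (adjusted p = 0.0152), and Ube2t, the ubiquitin-conjugating enzyme gene of the Fanconi pathway, by 1.02 ± 0.09 (adjusted p = 0.00467). Rpa2, of the protein that coats single-stranded DNA, rose by 0.83 ± 0.09 (adjusted p = 0.00703). Wee1, a kinase that restrains mitosis, rose by 0.82 ± 0.13 (adjusted p = 0.0149). Neil3 (0.71), Mutyh (0.69), Recql4 (0.64), Topbp1 (0.64) and Eme1 (0.59) followed, with adjusted p of 0.0117 to 0.0307, while Mutyh was below the floor in untreated FIP1L1-PDGFRA cells.

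The 5 further genes that fell were Gtf2h1 (-0.59), a TFIIH subunit gene, Rad1 (-0.57), of the checkpoint clamp, Ercc8 (-0.56), of transcription-coupled repair, Fancf (-0.56), of the Fanconi core complex, and Cdc25a (-0.52), a phosphatase that drives the cycle and is a target of CHK1. Their adjusted p ran from 0.0153 to 0.029. Rad1 went from 132 to 86.2 and from 127 to 87.9, and was 143 and 133 in IL3 cells. Taking both lists together, 11 of 20 recombination genes rose and 0 fell, with Rpa1, Rpa2 and Rpa3 counted among those that rose. Of 5 end joining genes 0 passed in either direction, and of 15 nucleotide excision repair genes 2 rose and 2 fell. Over all genes tested 13.5% rose and 12.4% fell, so that the end joining and nucleotide excision repair counts are near the background.

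Genes of DNA replication moved with these. Of 32 tested, 23 rose (71.9%) and 0 fell, against 13.5% and 12.4% of all genes tested. The replication medians were 0.50 in each fusion line and 0.06 in the IL3 pair. Among the repair genes, 14 are known for expression around S phase or under E2F: Brca1, Brca2, Bard1, Rad51ap1, Rad54l, Xrcc2, Blm, Exo1, Msh6, Ung, Chek1, Fancd2, Fanca and H2afx. All 11 of these that were tested rose (median 0.75), against 5 of the other 27 (median 0.17), namely Chek2, Xrcc1, Xpa, Fancg and Rev3l. Those 5 are 18.5% of the 27, near the 13.5% of all genes. Of the genes that rose with an E2F word in their window, Brca2 and Msh6 are among the 14, but Chek2 and Fancg are not. The list of 14 was drawn up with earlier results of these arrays known, so its count is a description. Each array holds RNA of a whole culture, so that more cells in a phase and more transcript per cell cannot be told apart, and the part of cell cycle state in these values was not tested.

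**Figure D4:**
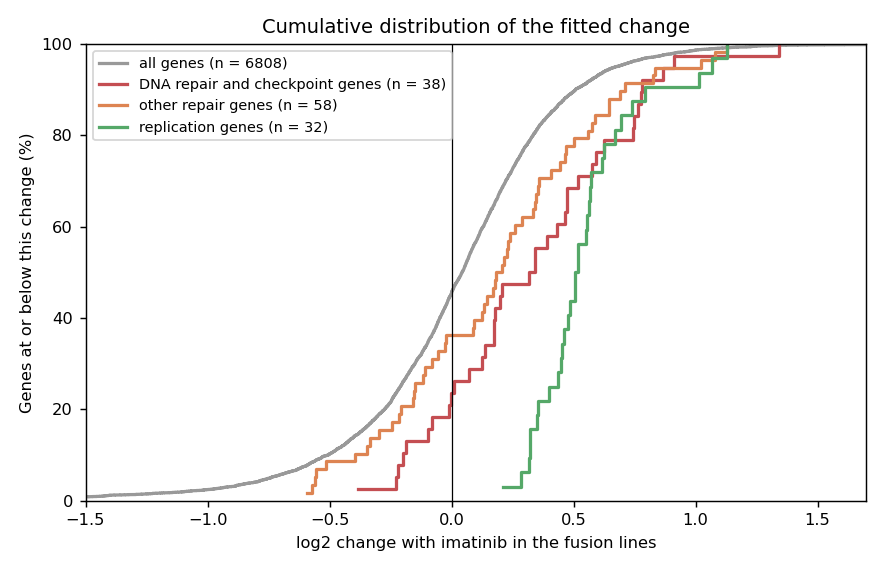
Cumulative distribution of the fitted log2 change with imatinib (horizontal axis) for all 6808 tested genes, the 38 repair and checkpoint genes, 58 further repair genes and 32 replication genes; the vertical axis gives the percentage of genes at or below each change. The medians are 0.04, 0.33, 0.19 and 0.51, and genes beyond the ends of the horizontal axis are counted but not drawn.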

How the data were processed

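Total RNA of Ba/F3 cells was labelled from 5 µg and hybridised to 6 Affymetrix mouse arrays, 1 per line and treatment. The sources used here do not say whether the treated and untreated arrays of a line came from 1 culture. The deposited intensity values are linear probe set signals that the authors made; MAS5 and GCOS 1.4.0 are named, per the submitters' processing notes; other settings and a genome build are not given in the sources used here. Of 22690 probe sets, 20393 had 1 gene symbol in the platform annotation, 691 several and 1606 none, 64 controls included; a member was matched by symbol or RefSeq gene number.

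Signals below 20.1 were set to it and log2 was taken. limma 3.58.1 (R 4.3.3) was fitted to the 6808 genes above this floor on at least 2 arrays, with line as a block and 1 imatinib coefficient for the fusion lines, the IL3 arrays entering as repeats (2 residual and 3.10 prior degrees of freedom). The contrast with IL3 cells had its own imatinib coefficient for them (1 residual degree of freedom). Fusion against IL3 cells was fitted with 4 group means (2 residual degrees of freedom), taking the lone IL3 array to vary like the fusion arrays. p-values were adjusted by Benjamini-Hochberg over all genes tested. They measure the spread between lines and arrays, not between cultures, and precision is limited by having 6 arrays. Values set to the floor (Ogg1, Ercc5) add no spread. Signals of different probe sets are not comparable levels. The fits were tested on simulated data. Branch counts and medians carry no test. Members, branches and lists were chosen with earlier results of these data known. Every member is named; of the other repair genes, up to 10 that rose and 10 that fell with the largest change are named. Tables and promoter matches used Python 3.11.15 with pandas 2.3.3. Alternatives covered the floor, the filter, scaling, the choice of probe set, variance moderation, the arrays fitted and leaving out a line.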

Additional observations from a re-analysis of the deposited data

Results flagged for a closer look

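The repair genes given here are those in which the fusion lines had log2 ratios of opposite sign, or both had the sign opposite to the IL3 pair, each ratio compared being larger than the SD of all log2 ratios of the IL3 pair (0.19). Genes in which 1 fusion line opposed the IL3 pair are not included. Chek1 was lower with imatinib in the IL3 pair (-0.24) and higher in ETV6-PDGFRB (0.79) and FIP1L1-PDGFRA cells (0.74). Its other probe set above the floor gave 0.74 in the IL3 pair. Xpc was at -0.43 in the IL3 pair and at 0.69 and 0.26 in the fusion lines. Fancc was at 0.33 in ETV6-PDGFRB cells, -0.35 in FIP1L1-PDGFRA cells and 0.47 in the IL3 pair. By limma the fusion response did not pass against the IL3 response for Chek1 (adjusted p = 0.177) or Xpc (adjusted p = 0.225), and the difference between the fusion lines for Fancc was not tested.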

How the results depend on the processing

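The 16 repair genes that rose kept a log2 change above 0 under every alternative run in which they were tested, and 16 kept their call with the pseudocount, with genes above the floor on all 6 arrays, with median scaling, with quantile normalization and with a variance trend, 14 with the floor moved to the 60th percentile and 13 with averaged probe sets. The count that rose was 9 with the floor moved to the 40th percentile, 8 with hybridization control scaling, 7 with the 4 fusion arrays alone or with an own coefficient for IL3 cells, and 2 with no filter on low signals, where 12393 genes were tested. The count that fell was 3 with hybridization control scaling and 1, Apex1, with the variance trend. Leaving out either fusion line gave 0 to 0 calls among repair genes, with 1 residual degree of freedom and 0 calls over all genes. Over all genes 916 rose and 841 fell, against 588 and 626 at the 40th percentile, 48 and 59 with no filter, 395 and 1880 with hybridization controls, and 418 and 471 with the 4 fusion arrays. No filter gave 1 repair gene, Ogg1, lower in treated fusion than in treated IL3 cells, and the pseudocount 2, Chek1 and Ung, with a higher response than the IL3 pair.

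Hybridization control scaling put the median of all genes at -0.17 and the branch medians at 0.03 (sensing and checkpoint), 0.55 (recombination), -0.13 (end joining), 0.11 (mismatch), -0.26 (base excision), 0.01 (nucleotide excision), 0.24 (Fanconi) and 0.13 (translesion). The mean of all probe sets gave 0.57 for recombination and 0.20 for translesion synthesis, whose median over 2 genes was 0.05 at the 40th percentile and 0.23 with no filter. Direction turned only in genes without a call: with hybridization controls Mre11a (-0.03), Nbn (-0.05), Xrcc4 (-0.05), Xrcc5 (-0.22), Msh3 (-0.09), Pms2 (-0.02), Parp2 (-0.10), Ercc3 (-0.16) and Ercc5 (-0.09); with the mean of all probe sets Parp1 (0.01); without the ETV6-PDGFRB pair Atm (0.07, range to -0.47 without the other fusion pair), Atr (0.03, to -0.22), Lig3 (0.01, to -0.77), Ercc2 (0.13, to -0.29) and Ercc3 (-0.07, to 0.21); and without the FIP1L1-PDGFRA pair Xrcc5 (-0.04, to 0.06) and Fancc (0.33, to -0.35). The causes were not tested.

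Past 1.5-fold, higher genes in ETV6-PDGFRB cells numbered 11, against 4 with hybridization controls, 7 with all probe sets and 1 at 2-fold, and lower genes 1, against 2, 0 and 0. In FIP1L1-PDGFRA cells the higher count was 10, against 5, 6 and 2, and the lower count 0, against 1 with hybridization controls and 1 at the 40th percentile. The fit itself pairs treated and untreated arrays by line, and with 1 array per line and treatment no further pairing was possible.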
